A study of Mus musculus with 9 samples.

Results

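The genes described here are 10 genes of iron storage, uptake, export and regulation, namely Fth1, Ftl1, Ncoa4, Tfrc, Steap3, Slc11a2, Slc11a1, Slc40a1, Ireb2 and Bach1. They were taken by symbol from a table of 45535 named gene rows, and each symbol matched 1 row. RNA was sequenced from CD103+ dendritic cells, a dendritic cell subset known for cross-presenting antigen, pulled on magnetic beads from collagenase-digested lungs of C57/BL6j mice. All mice had received the lung-injuring drug bleomycin for 7 days, so every sample of both groups carries that treatment and no untreated lung is used here. The groups are 5 samples with no culture step (before culture) and 4 samples kept for 18 h in serum-supplemented RPMI with penicillin and streptomycin (after culture). The labels do not give the age or sex of the mice, or whether a sample held cells of 1 mouse or several. The p-values thus judge a group difference against the spread between these samples, which may not be that between mice.

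Cells store iron inside ferritin, a shell built of heavy (Fth1) and light (Ftl1) chains, and Ncoa4 carries ferritin to the lysosome when iron is needed. Iron bound to transferrin enters through the transferrin receptor (Tfrc), is reduced by Steap3 and crosses the endosome membrane through Slc11a2, while ferroportin (Slc40a1) is the known route out of the cell. Slc11a1 is a related transporter of the phagosome in macrophages and other phagocytes. Iron regulatory proteins, of which Ireb2 encodes one, bind a hairpin called the iron-responsive element. In a 5′ untranslated region such a hairpin lets them block translation, and in a 3′ untranslated region it lets them protect the mRNA. Bach1 is a heme-sensing repressor of genes of heme breakdown and ferritin. Only mRNA was measured here, so iron, protein and translation are not part of these values.

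Because these hairpins set the known control of several of the genes, their sequences are shown first. The search was for the loop CAGTGN in the sense strand, closed by 5 base pairs, preceded on its 5′ side by an unpaired C, with at least 4 of the next 5 positions paired, G with T allowed. It found a match in 4 of the 10 genes, against 28 of 21877 protein-coding genes (0.128%) when the longest protein-coding transcript of each was read. Each line gives 29 bases of a GENCODE M21 transcript (build GRCm38), 5′ to 3′, with the 6 loop bases in capitals.
Fth1, 5′ untranslated region: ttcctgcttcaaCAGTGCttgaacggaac
Ftl1, 5′ untranslated region: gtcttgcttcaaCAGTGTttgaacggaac
Slc40a1, 5′ untranslated region: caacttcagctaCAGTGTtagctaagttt
Tfrc, the first hairpin of the 3′ untranslated region: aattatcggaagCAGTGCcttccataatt
Tfrc, the second hairpin of the 3′ untranslated region: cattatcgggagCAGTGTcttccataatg
Tfrc, the third hairpin of the 3′ untranslated region: ctatatcggagaCAGTGAtctccatatgt
Tfrc, the fourth hairpin of the 3′ untranslated region: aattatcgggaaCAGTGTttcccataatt
The hairpin of Fth1 lies on the plus strand at chr19:9982732-9982760, that of Ftl1 on the minus strand at chr7:45459779-45459807 and that of Slc40a1 on the minus strand at chr1:45925465-45925493. The 4 matches of Tfrc lie on the plus strand between chr16:32631219 and 32631738. They are numbered by their order among the matches, and hairpins of other letters or pairs in that region were not sought. No match to these letters and pairs was found in the protein-coding transcripts of the other 6 genes. Hairpins of other letters or pairs, such as those with an extra unpaired base, were not sought there either. The lack of a match therefore does not mean that these genes lack an iron-responsive element. Those genes lie at chr14:32159865-32179855 (Ncoa4, plus strand), chr1:120190757-120272705 (Steap3, minus), chr15:100387898-100425072 (Slc11a2, minus), chr1:74375195-74386062 (Slc11a1, plus), chr9:54863789-54912530 (Ireb2, plus) and chr16:87698945-87733346 (Bach1, plus). Of the 28 genes with a match, 21 could be tested, and 7 were higher, 6 lower and 8 not past the threshold (adjusted p of 0.05) after culture, near the shares among all tested genes (34.2% higher and 34.6% lower in limma).

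Whole reads could be recovered from the table, with 14.7 to 28.8 M reads per sample in named rows before culture and 26.0 to 35.3 M after culture. All 10 genes had a mean normalized read count of at least 10 and were tested. Of all 18202 tested genes, 68.8% passed an adjusted p of 0.05 between the groups in limma, 34.2% higher and 34.6% lower after culture. Against that background, 8 of the 10 iron genes were higher and 1, Bach1, was lower, while Tfrc did not pass. The median log2 fold change was 0.99 over the 10 genes and 0.0065 over all tested genes. The values of the groups did not overlap for 7 of the 10 genes, against 57.3% of all tested genes.

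Markers of the sorted cells and of other cells were read in the same samples. The summed normalized counts of 8 type 1 dendritic cell markers ran from 53007 to 63218 before and from 23623 to 30523 after culture. Of the 8, 3 were higher (Batf3, Flt3 and Zbtb46) and 5 lower. Among the lower was Itgae, the gene of CD103 itself, which went from 18138 ± 1537 to 1727 ± 335 (mean ± SD). Xcr1 went from 5836 ± 781 to 114 ± 32.5 and Clec9a from 2756 ± 286 to 315 ± 27.8. A list of 12 monocyte and interstitial macrophage markers, none of them at 0, summed to 41897 to 73724 before and 34691 to 71316 after culture, and 10 alveolar macrophage markers to 25994 to 35808 and 22930 to 32552, so both macrophage lists overlapped between the groups. Of these lists 2 and 2 markers were higher and 5 and 7 lower. The 7 tested of 9 neutrophil markers were lower, and the list went from sums of 12779 to 22023 to sums of 826 to 1699, with Ly6g at 0 after culture, and the sum of 9 erythroid markers, 6 of the 7 tested lower, from 4283 to 14168 to 804 to 3995. Fibroblast markers (5 of 5 lower) went from sums of 15551 to 28280 to sums of 2170 to 4386, and epithelial markers (5 of 6 lower, 1 higher) from 15297 to 31441 to 3777 to 7606. For each of these 4 lists every sum after culture was below every sum before it. T and NK cell markers (3 of 5 lower, 0 higher) went from sums of 3176 to 4225 to sums of 2424 to 3152, also without overlap. B cell marker sums overlapped (1327 to 2422 before and 1496 to 2046 after culture). The part of any of these cells in the values of the iron genes was not tested. In such bulk samples fewer cells of a type and less RNA per cell cannot be told apart.

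**Figure D1:**
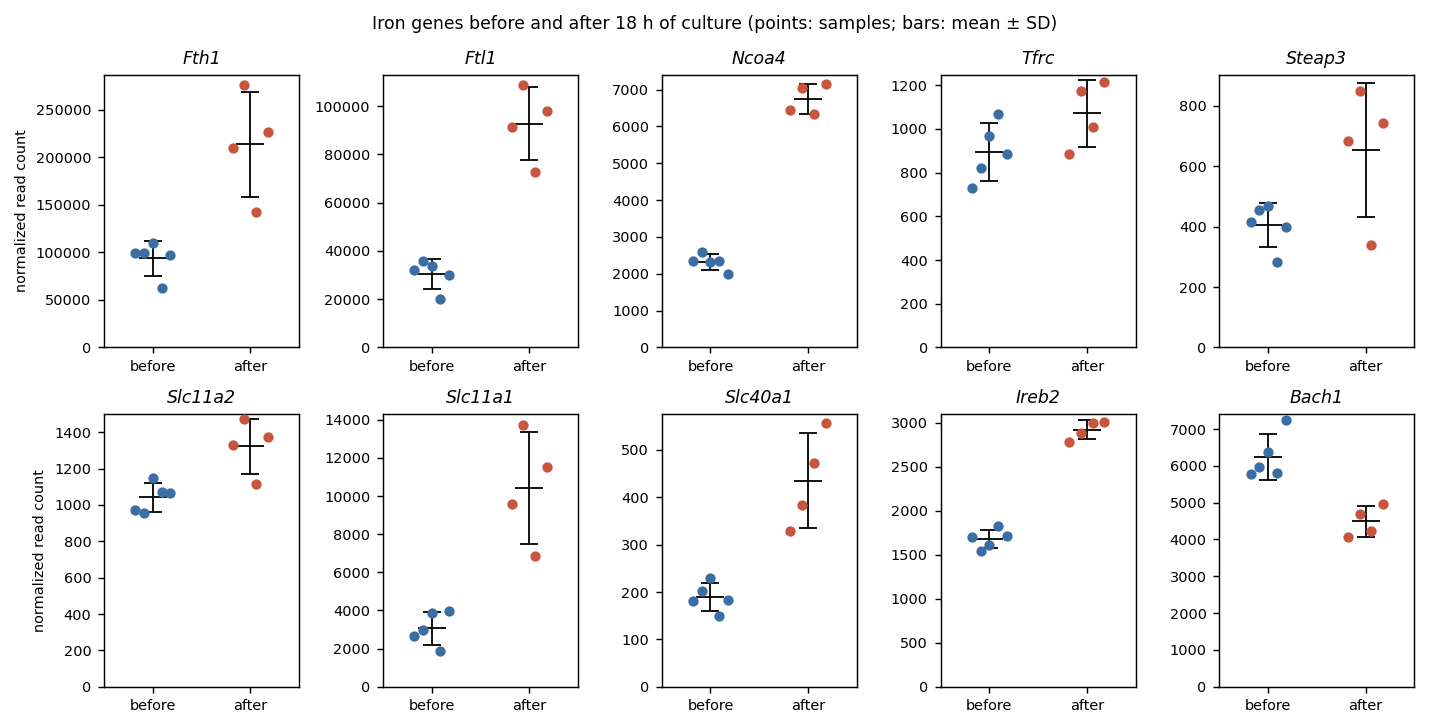
Normalized read counts (y axis, linear, from 0) of the 10 iron genes in the 5 samples before and 4 samples after culture. Points are samples and bars the mean ± SD; the groups stand apart for 7 genes and overlap for Tfrc, Steap3 and Slc11a2.

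Both ferritin chains rose. Fth1, the heavy chain with the ferroxidase site, had normalized counts of 99343, 99694, 109497, 62490 and 97322 in samples 1 to 5 before culture and of 209556, 276161, 142792 and 226401 in samples 1 to 4 after culture. Every cultured sample was above every uncultured one, and sample 4 before and sample 3 after culture were the lowest of their groups. The mean went from 93669 ± 18059 (SD, n = 5) to 213728 ± 55099 (SD, n = 4), 2.28-fold, with a log2 change of 1.18 (SE 0.200; limma, adjusted p = 1.48e-04).

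Ftl1, the light chain that helps the mineral core form, had counts of 32260, 35956, 33602, 20290 and 29977 before and of 91555, 108699, 72560 and 98065 after culture. The groups did not overlap, and the same samples 4 and 3 were lowest. The mean rose 3.05-fold, from 30417 ± 6062 to 92719 ± 15184 (SD), with a log2 change of 1.62 (SE 0.164; limma, adjusted p = 1.21e-06). The count of Ftl1 is uncertain, because 90.6% of the 50-base windows of its transcript also occur in transcripts of 17 other genes, most of all Ftl1-ps1. Of its exon bases, 47.9% are overlapped by Gm10252 and Gm22133. The row of Gm10252 held 4.29% as many counts as Ftl1 before and 5.14% after culture, and how the authors divided shared reads is not given in the sources used here. Of the Fth1 windows 4.01% are shared, with Gm6977.

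Together the ferritin genes took 0.504, 0.520, 0.535, 0.343 and 0.485% of the reads in named rows in samples 1 to 5 before culture, and 1.21, 1.44, 0.910 and 1.24% in samples 1 to 4 after culture. The share rose from 0.477 ± 0.0773% to 1.20 ± 0.218% (SD, n = 5 and 4), and a two-sided exact permutation test gave p = 0.0159, the lowest value possible with 5 against 4 samples. The groups did not overlap. The ratio of Fth1 to Ftl1 counts within a sample, which does not depend on scaling between samples, was 3.08, 2.77, 3.26, 3.08 and 3.25 before and 2.29, 2.54, 1.97 and 2.31 after culture. The light chain thus gained more than the heavy chain in these counts, by 0.44 on the log2 scale (1.62 ± 0.094 before and 1.18 ± 0.152 after culture, SD of the log2 ratio; two-sided exact permutation over 5 and 4 samples, p = 0.0159). The shared windows of Ftl1 bear on this ratio as well, and their part in it was not tested. Adding the rows of ferritin pseudogenes known by name left the difference at −0.44. Those rows averaged at most 58.1 counts over all samples, against 58107 for Ftl1, so they could hardly move the ratio. The addition left out Gm10252, and Ftl1-ps1 had no row under that name.

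**Figure D2:**
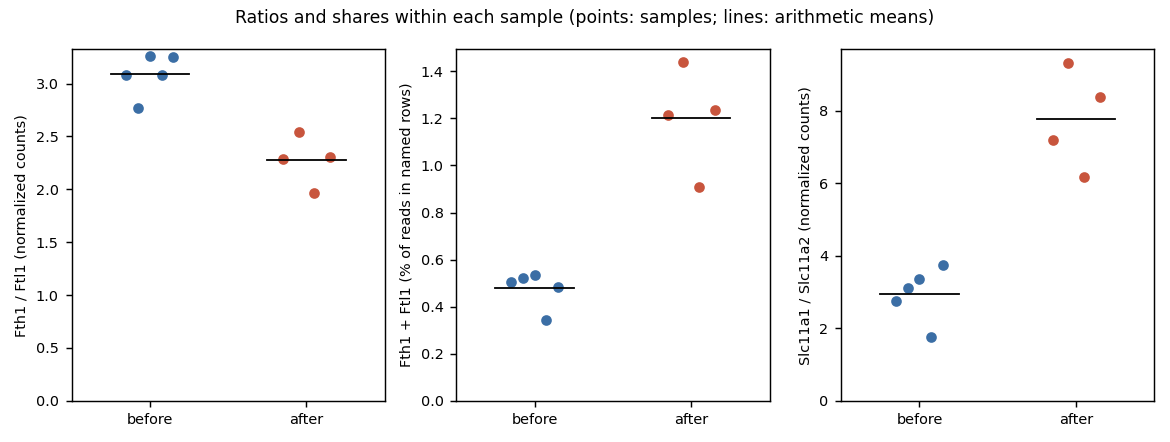
Ratio of Fth1 to Ftl1, share of named reads in both ferritin genes (in %), and ratio of Slc11a1 to Slc11a2 in each sample before and after culture (y axes linear, from 0; lines are arithmetic means). In each panel the groups do not overlap; the first ratio runs from 2.77 to 3.26 before and from 1.97 to 2.54 after culture.

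Ncoa4, the receptor that delivers ferritin to lysosomes, rose together with ferritin. Its counts were 2352, 2601, 2319, 2347 and 2005 before and 6455, 7044, 6337 and 7141 after culture, so the groups stood far apart and samples within a group differed little. The log2 fold change was 1.54 (SE 0.0805, limma adjusted p = 1.76e-09), a 2.90-fold rise. Of its windows 43.1% also occur in Gm6768, a gene with no row under that name, so its counts could not be read.

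Genes of transferrin iron uptake had smaller estimates with overlapping groups. Tfrc is the transferrin receptor, whose 4 matching hairpins are printed above. Its counts were 730, 820, 968, 1070 and 884 before and 883, 1174, 1010 and 1216 after culture. The groups overlapped, and the log2 fold change was 0.26 (SE 0.122, 95% interval −0.0023 to 0.52, limma adjusted p = 0.0723). It passed under 3 other scalings, under both replicate blocks and without sample 4 before or sample 1 after culture, with log2 fold changes from 0.23 to 0.37, and its sign turned to −0.16 (adjusted p = 0.196) once each sample was corrected for trends over transcript GC content and length, called the composition correction from here on.

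Steap3, the endosomal ferrireductase, had counts of 414, 455, 470, 284 and 399 before and of 685, 848, 338 and 743 after culture. Of the 4 cultured samples, 3 were above all uncultured ones, and sample 3 fell inside their range. The log2 fold change of 0.63 (SE 0.230) passed (limma adjusted p = 0.0256) but did not pass without sample 4 before culture (0.0564) or without sample 1 (0.0680), 2 (0.0830) or 4 (0.0811) after culture. It was 0.92 without sample 3 after culture (adjusted p = 1.24e-04), and 1.04 under the composition correction.

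The related metal transporters moved to different extents. Slc11a2, which moves ferrous iron out of the endosome, had counts of 973, 955, 1149, 1071 and 1067 before and of 1330, 1473, 1114 and 1376 after culture, with sample 3 after culture inside the uncultured range. Its mean rose 1.27-fold, a log2 change of 0.34 (SE 0.0921; limma, adjusted p = 0.00503). It was 0.62 under the composition correction. Slc11a1 had counts of 2667, 2964, 3854, 1887 and 3990 before and of 9567, 13717, 6864 and 11534 after culture. Its groups did not overlap, although its spread was wide; its coefficient of variation was 28.4% before culture. The mean of Slc11a1 rose 3.39-fold, a log2 change of 1.77 (SE 0.220; limma, adjusted p = 9.06e-06), the highest of the 10 estimates in this fit.

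Within a sample the ratio of Slc11a1 to Slc11a2 counts was 2.74, 3.10, 3.35, 1.76 and 3.74 before and 7.19, 9.31, 6.16 and 8.38 after culture. The groups did not overlap, and the log2 ratio differed by 1.43 (1.51 ± 0.421 before and 2.94 ± 0.260 after culture, SD, n = 5 and 4; two-sided exact permutation, p = 0.0159). All 3 permutation comparisons gave this same p, the lowest possible, so Benjamini-Hochberg adjustment over them could not change it.

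Slc40a1, ferroportin, had the lowest per-length mean of the 10 genes before culture. Its counts were 182, 203, 229, 149 and 183 before and 329, 384, 471 and 556 after culture. The groups did not overlap, and these values rest on 102 to 204 reads per sample before and 372 to 731 after culture. The mean rose 2.30-fold, from 189 ± 29.5 to 435 ± 99.6 (SD), with a log2 change of 1.18 (SE 0.161; limma, adjusted p = 2.10e-05).

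The regulators moved in opposite directions. Ireb2, the iron regulatory protein that is degraded when iron is ample, had counts of 1703, 1544, 1608, 1820 and 1713 before and of 2779, 2886, 2996 and 3008 after culture, the tightest spread of the 10 genes in both groups. It rose 1.74-fold, a log2 change of 0.80 (SE 0.0691; limma, adjusted p = 2.56e-07). It was 0.40 under the composition correction (adjusted p = 2.92e-04). Bach1 had counts of 5791, 5970, 6371, 5807 and 7253 before and of 4070, 4691, 4237 and 4970 after culture. Every cultured sample was below every uncultured one. Bach1 was 1.39-fold lower, a log2 change of −0.47 (SE 0.0873; limma, adjusted p = 3.00e-04).

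**Figure D3:**
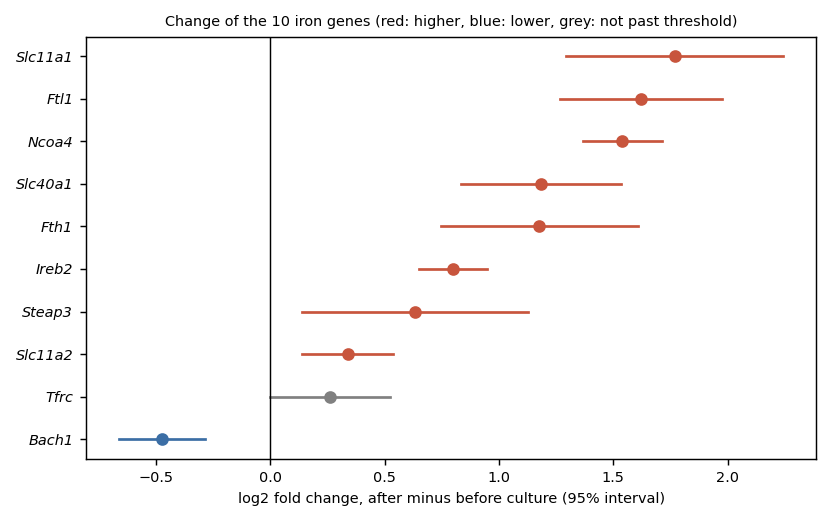
Log2 fold change (x axis, after minus before culture) of each iron gene with its 95% interval from limma. The 8 genes that were higher run from 0.34 for Slc11a2 to 1.77 for Slc11a1, Bach1 lies at −0.47, and the interval of Tfrc reaches 0.

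To compare levels between genes, counts were divided by the length of 1 transcript per gene in kilobases. For Fth1 this was Fth1-203, of 1494 bases, while its hairpin above was read from another transcript, Fth1-201. Levels on this scale depend on the transcript chosen, a shorter one giving a higher level, and other lengths were not tried. On this per-length scale Fth1 had 62697 ± 12088 and Ftl1 31422 ± 6262 normalized counts per kilobase before culture (SD, n = 5). Slc11a1 followed at 1327 ± 376 and Bach1 at 1063 ± 105, and these 2 overlapped. Then came Ncoa4 (572 ± 52.2), Slc11a2 (345 ± 26.2), Ireb2 (291 ± 18.3) and Tfrc (183 ± 26.8), each apart from the next. Steap3 (78.4 ± 14.2) and Slc40a1 (56.1 ± 8.75) were lowest and overlapped.

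After culture the per-length levels of Fth1 (143057 ± 36880) and Ftl1 (95785 ± 15686, SD, n = 4) overlapped with the lengths used, and this overlap depends on the transcript chosen for Fth1. Ncoa4, at 1659 ± 100 per kilobase, had passed Bach1, at 766 ± 70.3. Ireb2 (506 ± 18.6) overlapped with Slc11a2 (437 ± 50.2), and Slc40a1 (129 ± 29.6) with Steap3 (127 ± 42.8). The order from Slc11a1 downwards thus changed at 3 places, and only the exchange of Ncoa4 and Bach1 was between genes that did not overlap in either group.

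Samples of 1 group differed among themselves in a way that several of the iron genes shared. In sample 4 before culture, Fth1 stood at 0.667, Ftl1 at 0.667, Slc11a1 at 0.614 and Steap3 at 0.701 of their group means, each the lowest of the 5 samples. In sample 3 after culture the same genes stood at 0.668, 0.783, 0.659 and 0.518 of their group means, each the lowest of the 4 samples. Both libraries carry the number 4 in their names. The summed monocyte and interstitial macrophage markers were lowest in the same samples, at 41897 against 61765 to 73724 in the other 4 before culture, and at 34691 against 50778 to 71316 in the other 3 after culture. Neutrophil marker sums were lowest there too, at 12779 against 13357 to 22023 before and 826 against 1253 to 1699 after culture. Epithelial marker sums were highest there, at 31441 against 15297 to 18977 before and 7606 against 3777 to 4086 after culture. Those of T and NK cells were also highest there, at 4225 against 3176 to 3284 and 3152 against 2424 to 2798. The sums of the other lists were not at an extreme in both samples. These were type 1 dendritic cell, alveolar macrophage, erythroid, endothelial, fibroblast and B cell markers. Alveolar macrophage sums, for example, were 28500 in sample 4 and lower, 25994, in sample 5 before culture, and lowest in sample 3 after culture (22930). No other iron gene was lowest in both samples. Ireb2 stood at 1.08 and 1.03 of its group means, Tfrc at 1.20 and 0.943, and Bach1 at 0.931 and 0.943. Ncoa4 (1.01 and 0.940) and Slc11a2 (1.03 and 0.842) were lowest in sample 3 after culture only. Slc40a1 (0.788 and 1.08) was lowest in sample 4 before culture only.

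The difference between the groups remained without these libraries. With both left out, a choice made after the values were seen, log2 fold changes were 1.22 for Fth1, 1.59 for Ftl1, 1.79 for Slc11a1 and 0.80 for Steap3. In that fit all 10 genes passed, with Tfrc at 0.35 (limma adjusted p = 0.0191). The part of any of these cell types in the levels of the iron genes, within a group or between the groups, was not tested. Within the monocyte and interstitial macrophage list the markers moved in both directions, such as Cd68 (9503 ± 1626 to 17460 ± 4215) and Ccr2 (10869 ± 468 to 1980 ± 157), examples chosen after their values were seen.

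**Figure D4:**
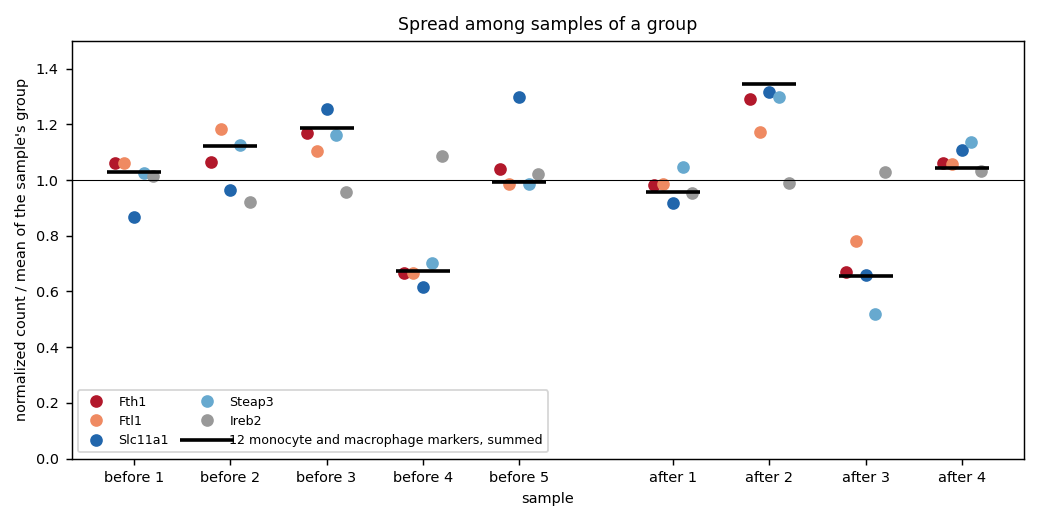
Normalized count of 5 iron genes in each sample, divided by the mean of the sample's group (y axis, linear, from 0), with the summed counts of 12 monocyte and macrophage markers as black bars. Fth1, Ftl1, Slc11a1, Steap3 and the markers are low in sample 4 before and sample 3 after culture, where Ireb2 is at 1.08 and 1.03.

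The genes most like 3 of the members over the 9 samples were sought among 11786 genes with a mean of at least 100, by the Euclidean distance between log2 values centred per gene. Those nearest to Fth1 were Vat1 (distance 0.228), Lhfpl2 (0.295) and Lamp1 (0.309), a lysosome membrane protein that went from 10463 ± 2028 to 23394 ± 4275. Those nearest to Tfrc were Rnf11 (0.225), Skic3 (0.248) and Amd1 (0.269). Those nearest to Slc40a1 were Zfp87 (0.438), Alg2 (0.478) and Bmf (0.482). The distances describe these samples, which share the culture contrast, and carry no test.

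A wider list of 73 iron and heme genes put the members in their pathway. Of these, 66 were tested, and 24 were higher and 30 lower after culture. Among all tested genes 34.2% were higher and 34.6% lower. The median log2 fold change of the list was −0.098, against 0.0065 for all tested genes. The 7 genes not tested included Hamp, encoding the hormone hepcidin, with at most 14 reads in any sample, and Ftmt, mitochondrial ferritin, with 0 reads.

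Other genes of iron sensing were mostly higher (5 of 7, with 2 lower). Aco1, which encodes the other iron regulatory protein, rose from 1412 ± 152 to 2273 ± 208 (log2 fold change 0.69, limma adjusted p = 2.06e-05). Fbxl5, the ubiquitin ligase subunit that targets Ireb2 protein for degradation, rose from 2052 ± 194 to 3038 ± 118 (0.57, adjusted p = 2.50e-05), with 0.31 under the composition correction. The mRNAs of both iron regulatory proteins were thus higher, and so was that of the ligase that removes one of them. The lower genes were Nfe2l2, the activator that competes with Bach1 (10977 ± 491 to 6652 ± 1092, log2 fold change −0.74), and Epas1, a hypoxia factor also made in endothelium (17264 ± 3093 to 1104 ± 101, −3.95). Endothelial markers (6 genes) fell beside Epas1, from sums of 21920 to 31725 to sums of 3189 to 4150, and their part in its fall was not tested.

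Other uptake genes were mostly lower, 9 of the 12 tested, with 1 higher and a median of −1.20. Slc39a8, a metal importer, went from 324 ± 30.8 to 77.2 ± 14.2 (log2 fold change −2.07, limma adjusted p = 2.71e-08). Trf, transferrin itself, went from 1645 ± 101 to 401 ± 100 (−2.07), although 79.8% of its windows are shared, most of all with Gm20425. Lcn2, which binds bacterial siderophores and is abundant in neutrophils, went from 764 ± 191 to 99.8 ± 28.5 (−2.94), beside the fall of the neutrophil markers given above, whose part was not tested. Steap2, a reductase, was the 1 higher gene (53.3 ± 9.88 to 91.3 ± 19.0), with a log2 fold change of 0.77, or 0.50 under the composition correction. Slc39a14, an importer of iron not bound to transferrin, did not pass (1451 ± 229 to 1366 ± 234, adjusted p = 0.560), with a sign that turned under 2 of the alternatives.

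Of the other export genes only 3 were tested. Cp, ceruloplasmin, which oxidizes iron leaving the cell, fell from 523 ± 112 to 143 ± 28.0 (log2 fold change −1.86, limma adjusted p = 5.40e-07). Its relative Heph (57.3 ± 15.5 to 37.7 ± 9.49) was close to the threshold (adjusted p = 0.0469), and 11 of its 21 alternatives lost the call. Rnf217, a ligase of ferroportin, rose from 674 ± 64.4 to 813 ± 66.2 (0.27, adjusted p = 0.0181). Its call was lost in 4 of the alternatives, and its sign turned to −0.050 under the composition correction.

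Of the 12 tested genes of heme breakdown and transport, 6 were higher and 4 lower. Hmox1, heme oxygenase, which frees iron from heme and is a known target of Bach1, rose 6.97-fold, from 2385 ± 293 to 16631 ± 3624 (log2 fold change 2.78, SE 0.136, limma adjusted p = 8.94e-10). Slc48a1, which carries heme out of the lysosome, rose 3.69-fold (2016 ± 171 to 7444 ± 1563, adjusted p = 1.85e-08), and Flvcr1, a heme exporter with 18.4% of its windows shared, rose 2.52-fold (from a mean of 1193 to 3013 ± 413, adjusted p = 4.14e-08). Blvrb, a biliverdin reductase named after its value was seen, rose 6.26-fold (414 ± 96.4 to 2595 ± 677, adjusted p = 8.21e-08). The lower ones were Cd163, the hemoglobin scavenger of macrophages (128 ± 11.5 to 10.2 ± 5.77), Hp, haptoglobin (1118 ± 346 to 433 ± 172), Abcg2 (247 ± 53.2 to 123 ± 15.8) and Flvcr2 (427 ± 98.0 to 262 ± 97.5, groups overlapping). The sums of both macrophage lists overlapped between the groups, as given above, and the neutrophil sums fell, and the part of either in these values was not tested.

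Heme synthesis was split, with 4 of 9 genes higher and 4 lower. Alas1, its first and rate-limiting enzyme, rose 4.23-fold, from 3316 ± 494 to 14011 ± 2843 (log2 fold change 2.07, limma adjusted p = 2.44e-08), with some of its windows shared with 4930500F10Rik. Cpox rose from 264 ± 28.3 to 437 ± 38.2 and Urod fell from 524 ± 19.8 to 368 ± 74.5. Urod did not pass under the composition correction (−0.22, adjusted p = 0.0927). Alas2, the erythroid form, fell from 383 ± 169 to 150 ± 81.9 with overlapping groups, beside the fall of the erythroid markers, a list that holds Alas2 too. Ppox and Alad were lower by 0.38 and 0.44 on the log2 scale, and both signs turned under the composition correction.

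Genes of mitochondrial iron and iron-sulfur clusters were also split, 5 higher and 6 lower of 16. Iscu, the scaffold on which clusters form, rose from 1715 ± 169 to 3512 ± 94.5 (log2 fold change 1.04, limma adjusted p = 8.87e-08), with 23.5% of its windows shared. The 2 mitoferrins, which bring iron into mitochondria, went opposite ways. Slc25a28 fell 1.99-fold (924 ± 133 to 464 ± 51.3, adjusted p = 5.14e-06), and its log2 fold change of −0.99 was −0.36 under the composition correction (adjusted p = 0.00332). Slc25a37 rose 1.18-fold with overlapping groups (1128 ± 124 to 1337 ± 77.2, adjusted p = 0.0260), a call lost in 3 of the alternatives. Cisd2 and Ciao1 were higher too, by log2 fold changes of 0.71 and 0.38, which were 0.41 and 0.21 under the composition correction.

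Among other genes of iron storage and delivery, 2 of 7 were higher and 3 lower. Mcoln1, a lysosomal channel that releases iron, rose from 1337 ± 102 to 2319 ± 139 (log2 fold change 0.80, limma adjusted p = 8.74e-07), with 1.24 under the composition correction. Tax1bp1, an autophagy receptor of ferritin, rose from 5401 ± 287 to 6696 ± 216 (0.31), a change that was −0.044 under the composition correction. Pcbp3, of the family of iron chaperones, fell from 280 ± 32.7 to 90.0 ± 17.8 (−1.64).

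**Figure D5:**
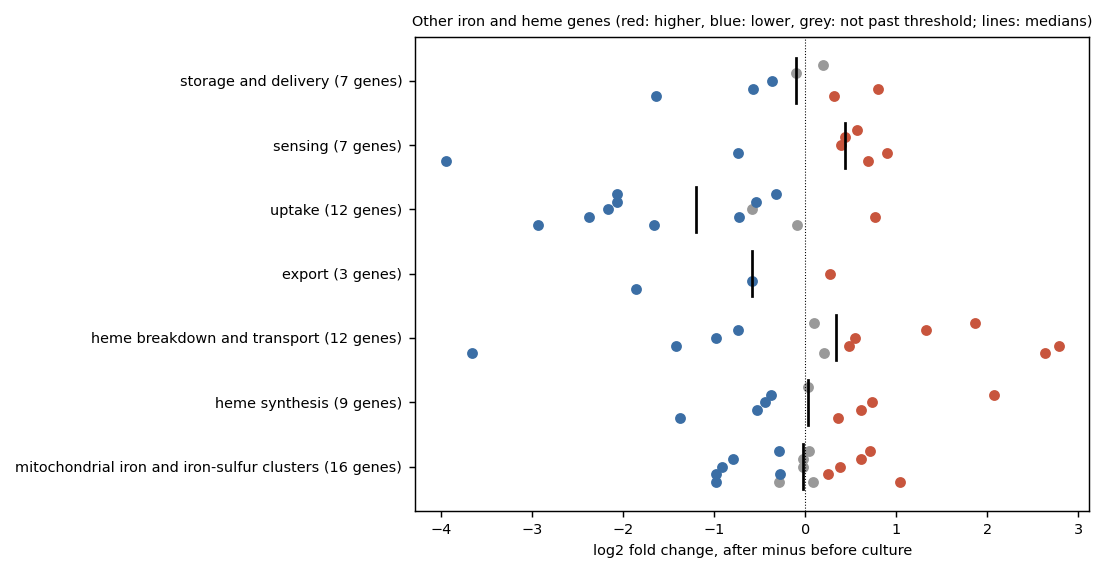
Log2 fold change (x axis, after minus before culture) of the 66 tested genes of the wider iron and heme list, by role, with a black line at each role's median. Uptake genes lie mostly on the left (median −1.20), while genes of heme breakdown and transport reach from −3.66 for Cd163 to 2.78 for Hmox1.

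In the 300 bases around the start (250 before and 50 after), RefSeq promoter sequences of GRCm38.p6 were at hand for 8 of the 10 genes, in 15 windows. The antioxidant response core TGACNNNGC, which Nfe2l2 is known to bind, was searched on both strands. It occurred in 1 of the 15 windows, a window of Ncoa4, against 12.4% of all 32851 windows. Counted by gene, it occurred in 1 of the 8 genes, against 14.0% of all 27025 genes with a window. Sequence farther from the start was not searched. The search counts letters in short windows and says nothing of binding.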

How the data were processed

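Total RNA of 9 samples was sequenced by a company, and the samples were grouped by title. The authors deposited 1 table that gives each gene a normalized read count in each sample, here treated as a signal. The submitters' processing notes name DESeq2 and GRCm38; the aligner, counter, annotation and strandedness are not given in the sources used here. All values (100%, tolerance 1e-06) were whole multiples of 1 read, so whole reads were recovered; 1 read was worth 0.758 to 1.79. The 3782 rows without a symbol held 3.87 to 10.9% of reads and were left out.

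Genes whose normalized counts averaged 10 or more were fitted as log2(value + 1) with limma 3.58.1 (R 4.3.3), group as the only term, with a mean-variance trend, two-sided, Benjamini-Hochberg over all 18202 tested genes. Fold changes on that scale understate low genes; printed folds are ratios of group means. For ratios and shares, an exact permutation test used each of the 126 splits. A gene's transcript was the longest with APPRIS principal and CCDS tags in GENCODE M21, used for length, GC content, shared 50-base windows on either strand and overlaps; this may not be the authors' annotation.

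Named genes are the 10 members and, of the wider list, the 3 per role with the smallest adjusted p, those called against their role's median and 7 fixed by name. For 1 gene that this rule names, the result is not reported here. The members and lists were chosen with earlier results of these data known. Alternatives were other pseudocounts, filters and scalings, edgeR 4.0.16 and DESeq2 1.42.0 on the recovered reads, replicate blocks, the composition correction (a loess trend over transcript GC content and length, removed per sample; 96.5% of tested genes had both), and leaving out samples. Only the scaling and the limma fit were run on simulated data, in which far fewer genes changed than were called here.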

Additional observations from a re-analysis of the deposited data

Results flagged for a closer look

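Fth1 before culture had 1 sample far from the other 4, namely sample 4 with a normalized count of 62490, and the gap to the next sample was 0.741 of the group's range (the limit for 5 samples is 0.710). The ferritin share of named reads, which is mostly Fth1, set the same sample apart, at 0.343% with a gap of 0.736 of the range. In all, 26 groups of 4 or 5 values were examined in this way, and chance alone marks about 1 in 20.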

How the results depend on the processing

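The count of members past the threshold was 9, from 8 to 9 when 1 sample was left out and 9 or 10 under the other alternatives, and 8 members kept direction and call throughout. For Tfrc (0.26, adjusted p = 0.0723), TMM scaling gave 0.29 (0.0470), upper quartile scaling 0.37 (0.0147), quantile normalization 0.30 (0.0417), and leaving out both libraries numbered 4 gave 0.35 (0.0191); the composition correction gave −0.16. Leaving out 1 sample gave 0.19 to 0.35 for Tfrc and 0.48 to 0.92 for Steap3. The cause was not tested. Upper quartile scaling moved the median of all genes to 0.12 and the composition correction to 0.13; relative to it Tfrc was 0.25 and −0.29. Ratios and shares kept their direction in every fit.

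Equal numbers do not pair the samples by the labels. Correlations of same-numbered samples' deviations ran from −0.213 to 0.0807 by title and from 0.0447 to 0.349 by library name; each cultured sample, but not every uncultured one, correlated best with its own library number. The replicate block by title number called 11646 genes and by library name number 12836, against 12524. Under these blocks Tfrc was 0.26 (0.0439) and 0.23 (0.0394), and Steap3 0.63 (0.0558, no longer past the threshold) and 0.68. With 4 pairs an exact sign-flip test cannot go below p = 0.125, and the paired differences were −0.42 and −0.48 for the Fth1 to Ftl1 ratio, 0.724 and 0.733 percentage points for the ferritin share, and 1.53 and 1.46 for the Slc11a1 to Slc11a2 ratio.

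Of the 34 named genes of the wider list, 25 kept direction and call throughout. The sign turned under the composition correction for Tax1bp1 (−0.044), Slc39a14 (0.041), Rnf217 (−0.050), Ppox (0.077) and Alad (0.053), and under upper quartile scaling for Slc39a14 (0.021). Without a filter 14150 of 31592 genes passed, and with a minimum mean of 50, 9925 of 13551. On the recovered whole reads edgeR's quasi-likelihood test called 12562 genes and DESeq2 12663.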
